A study of Homo sapiens with 36 samples.

Results

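The genes described here are the zinc finger genes of human chromosome 19. They are the protein-coding genes of the authors' expression table whose symbol is ZNF with a number, whose first listed chromosome is 19, and whose mean level over the input libraries was at least 1 CPM, a count scaled to library size. The rule took 187 of the 60675 genes counted, while 247 met it with no limit on level. It used the overall input level and no comparison between groups. The members just inside the limit were ZNF66 with a mean input level of 1.14 CPM, ZNF90 with 1.24 CPM and ZNF441 with 1.27 CPM. The genes just outside were ZNF492 with 0.954 CPM, ZNF233 with 0.921 CPM and ZNF135 with 0.913 CPM. All 187 members passed the low-count filter of the test, and 155 had at least 3 CPM.

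Zinc finger proteins of this family bind DNA through rows of fingers in which cysteines and histidines hold a zinc ion. Many members also carry a KRAB domain, which recruits the scaffold TRIM28 and through it the histone methyltransferase SETDB1, heterochromatin proteins and histone deacetylases, so that the bound site is silenced. A known set of their targets is retroelements. The genes arose by repeated duplication and lie in tandem clusters, most densely on chromosome 19. YTHDF1, YTHDF2 and YTHDF3 are cytoplasmic proteins that bind mRNA carrying N6-methyladenosine (m6A), and long internal exons and last exons are known places for that mark.

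The study used HEK293T cells, an established human embryonic kidney line, as 3 lines that expressed a fusion of YTHDF1, YTHDF2 or YTHDF3 to ADAR, the enzyme that turns adenosine into inosine in RNA, so that transcripts met by the fusion become edited. From each line, RNA was sequenced after immunoprecipitation (RIP) with an antibody to YTHDF1, to YTHDF2 or to YTHDF3, and from total lysate (input). The 12 groups were therefore the YTHDF1 RIP, YTHDF2 RIP, YTHDF3 RIP and input of YTHDF1-ADAR cells, the same 4 fractions of YTHDF2-ADAR cells, and the same 4 of YTHDF3-ADAR cells. Every library, inputs included, came from cells given 1 µg/mL doxycycline for 24 h to switch the fusion on, so the inputs also come from cells with an active fusion. The labels do not say whether a line was a single clone. Each group held 3 libraries, and the labels do not call them separate cultures, so the spread behind every p-value may be technical.

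Library totals lay between 12488434 and 37451291 counts, and those of the YTHDF1 RIP of YTHDF2-ADAR and YTHDF3-ADAR cells between 12488434 and 16341320. Those 6 libraries stood apart from the other 30. Olfactory receptor genes, which should be silent in kidney cells, summed to 32.3 to 54.3 CPM in them, against 2.82 to 18.5 CPM elsewhere. Small nucleolar RNAs took 0.696 to 4.35% of their counts, against 0.036 to 0.564% elsewhere, and protein-coding genes took 54.1 to 74.2%, against 71.5 to 92.4%. Since all libraries of those groups shared this, no result on them could be given without it, and its part in those results was not tested. VIM (238 to 369 CPM) and CDH2 (83 to 107 CPM), which HEK293T cells express, were present in every input. Among genes listed as markers of other cells, HBB, PTPRC and COL1A2 were at 0, and ALB, APOA1, PECAM1 and MYH7 did not exceed 0.301 CPM. Not all were absent: HBA1 had 2.59 to 8.31 CPM, COL1A1 13.85 to 30.19 CPM and GFAP 2.40 to 4.32 CPM in the inputs.

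In input, the median member had 8.0 CPM, and members ranged from 1.14 to 158 CPM. Per kilobase of exon, ZNF146 was highest with 27.3 CPM per kb. ZNF146 encodes a protein made almost only of fingers, without a KRAB domain. ZNF121 followed with 21.8 CPM per kb and ZNF581 with 20.2 CPM per kb. The authors counted reads that map to several places and reads over several genes for each of them, without use of strand, so values of near-identical members and of overlapping genes are uncertain. Of the members, 111 shared exon bases with another gene, and 7 shared over 50% of them: ZNF57, ZNF177, ZNF709, ZNF564, ZNF490, ZNF497 and ZNF446.

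The first comparison asks which transcripts the YTHDF1 antibody enriched in the line that expressed the YTHDF1 fusion. With edgeR's trimmed mean scaling, zinc finger transcripts were broadly enriched. At adjusted p under 0.05, 152 of 187 members were higher in YTHDF1 RIP than in input and 12 were lower (edgeR quasi-likelihood test, Benjamini-Hochberg adjustment over all genes tested). Of all genes tested, 20.6% were higher and 28.8% were lower. The members' median log2 fold change was 1.17 in YTHDF1 RIP over input, against -0.28 for all genes tested. Members took 0.645 ± 0.067% of all counts in YTHDF1 RIP (SD, n = 3), with 0.571% as the lowest, against 0.246 to 0.258% in input. Single members ran from -2.60 for ZNF90, which lies below 3 CPM and is named for this value, to 2.64 for ZNF416.

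These fold changes depend on how libraries are scaled. With total counts, DESeq2 size factors or the mitochondrially encoded mRNAs as the standard in place of edgeR's trimmed mean, the median of all genes moved by -1.63 to 0.95 on the log2 scale over all comparisons. Mitochondrial mRNAs took 2.48% of counts in YTHDF1 RIP of YTHDF1-ADAR cells, against 1.18% in input, so scaling to them lowers every value of that comparison. Members are therefore also given relative to the median of all genes. In YTHDF1-ADAR cells that difference was 1.45 to 1.53 log2 units over the 4 scalings, while the members' own median ran from 0.11 to 1.35. Under mitochondrial scaling 17 members were called higher and 18 lower there. That standard itself ranged between replicates, from 2.0 to 3.06% of counts in YTHDF1 RIP and 0.663 to 1.58% in input. Where a scaling moved the split of members called higher and lower by over 10 percentage points, its split is given beside the first.

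**Figure D1:**
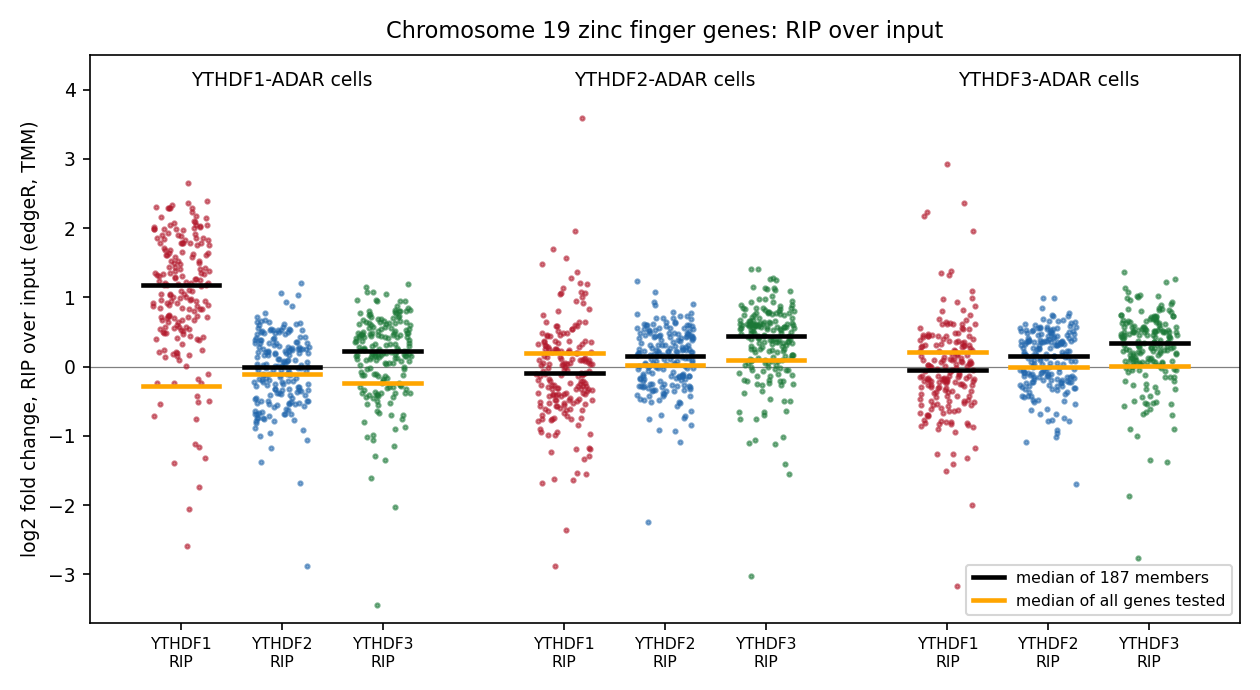
Log2 fold change of RIP over input for 187 zinc finger genes of chromosome 19 (1 point each, coloured by antibody) in 9 comparisons, with the members' median in black and the median of all genes tested in orange. The member median stands at 1.17 in YTHDF1 RIP of YTHDF1-ADAR cells, against -0.28 for all genes, and lies below the all-gene median in YTHDF1 RIP of the other lines; under mitochondrial scaling the members' own medians fall to between -1.69 and 0.11 in the 3 YTHDF1 RIP comparisons.

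ZNF416 (ENSG00000083817, chr19:57571566-57578911, minus strand, GRCh38) encodes a KRAB zinc finger protein. It had 21.3, 21.8 and 22.0 CPM in YTHDF1 RIP, against 3.12, 4.13 and 3.15 CPM in input. All 3 RIP libraries lay far above all 3 inputs, and its log2 fold change was 2.64 ± 0.19 (SE; edgeR adjusted p = 2.4e-13). ZNF420, a KRAB zinc finger gene (ENSG00000197050, chr19:37007857-37130368), had 30.2, 25.3 and 27.9 CPM in YTHDF1 RIP, against 4.35, 6.08 and 5.45 CPM in input. Its groups did not overlap either, with a log2 fold change of 2.39 ± 0.18 (edgeR adjusted p = 5.2e-13). ZNF14 (ENSG00000105708, chr19:19710472-19733112), also of the KRAB kind, shares no exon base with another gene. It had 28.8, 24.6 and 25.3 CPM in YTHDF1 RIP, against 5.10, 4.56 and 5.68 CPM in input.

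ZNF180 came next, at 2.33, and then ZNF526, at a higher level. ZNF526 (ENSG00000167625, chr19:42220312-42228201) had 167, 163 and 152 CPM in YTHDF1 RIP, against 33.0, 34.1 and 30.4 CPM in input, a log2 fold change of 2.30 ± 0.19 (edgeR adjusted p = 1.9e-12). ZNF823, ZNF615 and ZNF304 followed at 2.30, 2.29 and 2.29. ZNF146, the member with the highest level per kilobase, reached 290, 224 and 326 CPM in YTHDF1 RIP, against 103, 143 and 129 CPM in input, so the groups did not overlap (log2 fold change 1.17 ± 0.15, edgeR adjusted p = 3.7e-08). Among members with KRAB domains that have a described role, ZNF274 brings SETDB1 to the 3′ ends of other zinc finger genes. It rose by 0.52 ± 0.14, and ZNF224, a repressor of transcription, by 0.70 ± 0.15. Mitochondrial scaling moved the median of all genes by -1.14 in that comparison, a larger shift than either rise.

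The 12 members that fell were led, at 3 CPM and above, by ZNF738 (ENSG00000172687, chr19:21358930-21379302). It had 1.69, 2.47 and 2.59 CPM in YTHDF1 RIP, against 7.51, 9.27 and 11.4 CPM in input. Every RIP library was below every input, and the log2 fold change was -2.06 ± 0.27 (edgeR adjusted p = 3.6e-08). ZNF428 had 10.9, 9.48 and 17.4 CPM in YTHDF1 RIP, against 31.3, 30.2 and 38.4 CPM in input (-1.40 ± 0.24), and 32.1% of its exon bases lie over the antisense gene SRRM5. ZNF414 followed at -1.16 ± 0.22 and ZNF587B at -0.75 ± 0.14. ZNF444, which carries a SCAN domain, was called lower at -0.54 ± 0.20 (edgeR adjusted p = 0.025), but that call did not hold with DESeq2, with total counts, with DESeq2 size factors, or without input replicate 2 or 3 or YTHDF1 RIP replicate 1 or 2.

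**Figure D2:**
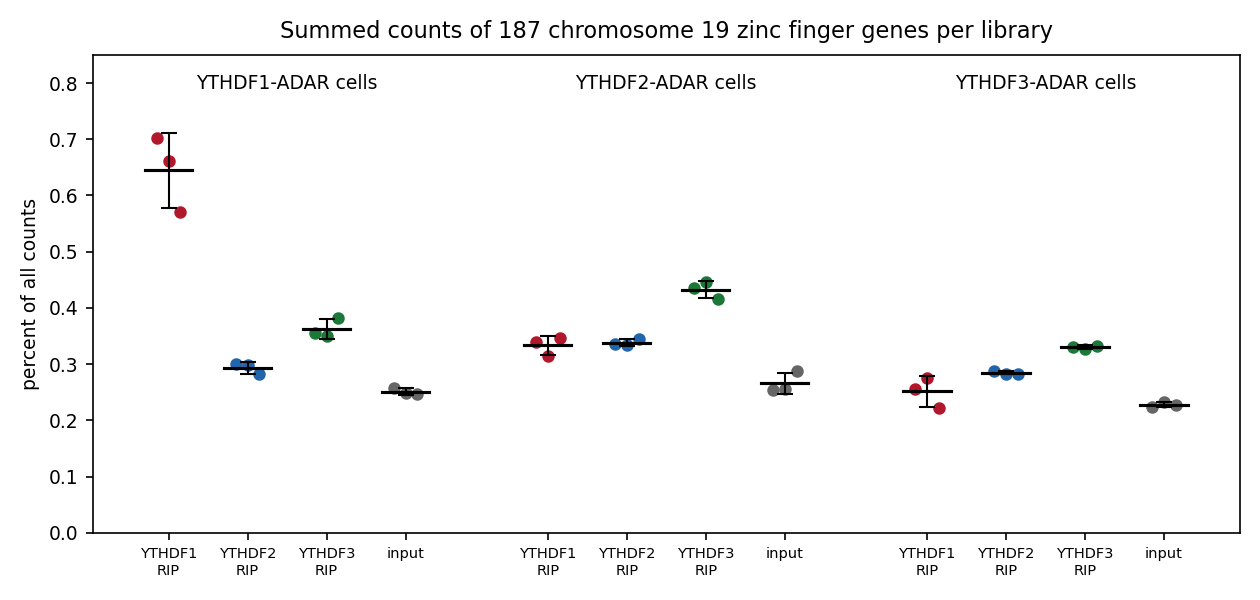
Share of all counts (percent) that fell on the 187 zinc finger genes in each of 36 libraries, by line and fraction, with 1 point per library and the mean ± SD of 3 libraries. YTHDF1 RIP of YTHDF1-ADAR cells stands highest with a mean of 0.645%, against 0.246 to 0.258% in its inputs.

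In the lines that expressed the other fusions, the same antibody gave another picture. In YTHDF2-ADAR cells 39 members were higher and 61 lower in YTHDF1 RIP than in input, where 41.8% of all genes were higher and 33.4% lower. In YTHDF3-ADAR cells 43 were higher and 44 lower, where 40.8% of all genes were higher and 32.4% lower. The members' medians were -0.09 and -0.05, against 0.20 and 0.21 for all genes. Relative to all genes the members stood 0.28 to 0.29 log2 units lower in YTHDF2-ADAR cells and 0.26 to 0.27 lower in YTHDF3-ADAR cells under all 4 scalings, while their own medians changed sign (0.43 and 0.28 with total counts, -0.83 and -1.69 with mitochondrial mRNAs). The split in YTHDF2-ADAR cells was 55 higher and 44 lower with DESeq2 size factors, 99 and 14 with total counts, and 1 and 80 with mitochondrial mRNAs. In YTHDF3-ADAR cells it was 62 and 35, 80 and 19, and 1 and 164. Members called higher numbered 18, 18, 20, 19 and 18 without YTHDF2-ADAR input replicates 1 to 3 and YTHDF1 RIP replicates 1 and 3, and 15, 14, 15, 16 and 27 without YTHDF3-ADAR input replicates 1 to 3 and YTHDF1 RIP replicates 2 and 3. Members called lower in YTHDF3-ADAR cells numbered 76, 80, 78 and 81 without input replicates 1 to 3 and YTHDF1 RIP replicate 2.

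The test of the difference itself, YTHDF1 RIP enrichment in YTHDF1-ADAR cells minus its mean in the other lines, called 141 members higher and 12 lower, where 26.9% of all genes were higher and 42.4% lower. The median difference was 1.18 for members, against -0.45 for all genes, and members stood 1.63 to 1.64 above all genes under the 4 scalings. Mitochondrial scaling called 97 members higher and 4 lower. The members called lower numbered 7 without input replicate 2 or YTHDF1 RIP replicate 1 of YTHDF1-ADAR cells. ZNF304 (ENSG00000131845, chr19:57351271-57359898), a KRAB repressor known from gene silencing in colorectal cancer cells, had 55.3, 50.9 and 50.6 CPM in YTHDF1 RIP of YTHDF1-ADAR cells, against 8.22, 12.7 and 11 CPM in input. In YTHDF2-ADAR cells it had 12.9, 13.3 and 14.2 CPM in YTHDF1 RIP, against 18.6, 22.4 and 19.3 CPM in input. The RIP libraries were thus the higher ones in YTHDF1-ADAR cells and the lower ones in YTHDF2-ADAR cells, with log2 fold changes of 2.29 ± 0.17 and -0.57 ± 0.17. In YTHDF3-ADAR cells the value was -0.37 ± 0.17, which did not pass (edgeR adjusted p = 0.056), and the difference between lines was 2.76 ± 0.21 (edgeR adjusted p = 2.3e-13).

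By the trimmed mean, ZNF146 and ZNF121 show the same at high levels. Mitochondrial scaling moved the median of all genes by -1.14 in YTHDF1 RIP of YTHDF1-ADAR cells, so the rise of both genes there depends on the scaling. ZNF146 had 81.8, 77.3 and 81.9 CPM in YTHDF1 RIP of YTHDF2-ADAR cells, against 133, 121 and 156 CPM in input. Its log2 fold changes were 1.17 ± 0.15 in YTHDF1-ADAR cells, -0.76 ± 0.15 with the YTHDF2 fusion and -0.90 ± 0.15 with the YTHDF3 fusion, and those of ZNF121 were 0.73, -1.18 and -1.26, each past the test. In all, 53 members (of all genes, 18.1%) were called higher in YTHDF1 RIP of at least 1 line and lower in that of another, and this count was 36 with DESeq2 size factors, 17 with total counts and 18 with mitochondrial mRNAs.

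ZNF780B (ENSG00000128000, chr19:40028260-40056231) was higher in YTHDF1 RIP in each line. It had 19.1, 24.0 and 15.5 CPM in YTHDF1 RIP of YTHDF1-ADAR cells, against 5.76, 5.10 and 5.33 CPM in input. It had 19.6, 20.4 and 19.4 CPM in YTHDF1 RIP of YTHDF2-ADAR cells, against 6.18, 5.64 and 6.55 CPM in input, and 14.4, 19.6 and 18.4 CPM in that of YTHDF3-ADAR cells, against 4.26, 2.84 and 4.5 CPM in input. No RIP library overlapped an input in any line, and the log2 fold changes were 1.86, 1.69 and 2.18 (SE 0.19 each).

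Some members went the other way. ZNF506 (ENSG00000081665, chr19:19785839-19821751) had 19.3, 17.0 and 15.9 CPM in YTHDF1 RIP of YTHDF2-ADAR cells, against 1.54, 1.18 and 1.6 CPM in input, a log2 fold change of 3.59 ± 0.33. In YTHDF1-ADAR cells it had 2.48, 4.62 and 2.78 CPM in YTHDF1 RIP, against 7.84, 2.61 and 2.88 CPM in input, and there the groups overlapped. ZNF506 was singled out after its values were seen. ZNF587B was lower in YTHDF1 RIP of YTHDF1-ADAR cells, as above. By the trimmed mean, it had log2 fold changes of 0.92 ± 0.14 with the YTHDF2 fusion and 0.61 ± 0.14 with the YTHDF3 fusion. Mitochondrial scaling moved the median of all genes by -0.75 and -1.63 in those comparisons, so these rises depend on the scaling.

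With the YTHDF2 antibody, fewer members passed the test. In YTHDF1-ADAR cells 32 were higher and 37 lower in YTHDF2 RIP than in input, where 8.66% of all genes were higher and 15.4% lower. In YTHDF2-ADAR cells 41 were higher and 13 lower, where 10.2% and 10.1% of all genes were, and in YTHDF3-ADAR cells 35 were higher and 13 lower, where 8.98% and 9.93% were. The medians were -0.00, 0.16 and 0.16, against -0.11, 0.02 and 0.00 for all genes, and the last of the member medians turns to -0.06 under mitochondrial scaling, while the first lay between -0.00 and 0.57. The split in YTHDF1-ADAR cells was 43 higher and 23 lower with DESeq2 size factors, 53 and 14 with total counts, and 4 and 0 with mitochondrial mRNAs. In the other lines total counts gave 70 and 3, and 72 and 3, and mitochondrial mRNAs 1 and 0, and 0 and 0. Without any 1 of several libraries these counts move by over 1.5 times: in YTHDF1-ADAR cells, members called lower numbered 18 without input replicate 2, 15 without input replicate 3, and 20, 20 and 19 without YTHDF2 RIP replicates 1, 2 and 3, and members called higher numbered 21 without input replicate 1. In YTHDF2-ADAR cells 20, 21 and 20 were higher without input replicates 1 and 3 and YTHDF2 RIP replicate 1, and 5, 5 and 4 were lower without input replicate 3 and YTHDF2 RIP replicates 1 and 2. In YTHDF3-ADAR cells 14, 18, 9, 20 and 9 were higher without input replicates 1 to 3 and YTHDF2 RIP replicates 2 and 3, and 8, 4, 5 and 4 were lower without input replicates 1 and 3 and YTHDF2 RIP replicates 2 and 3.

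ZNF304 led the YTHDF2 RIP. It had 48.3, 44.9 and 48.6 CPM in YTHDF2 RIP of YTHDF2-ADAR cells, against 18.6, 22.4 and 19.3 CPM in input, so every RIP library was at least 2-fold above every input. Its log2 fold changes were 1.20 ± 0.17, 1.24 ± 0.17 and 1.00 ± 0.17 in the lines with the YTHDF1, YTHDF2 and YTHDF3 fusion. ZNF772, a KRAB zinc finger gene, had 55.9, 42.7 and 47.3 CPM in YTHDF2 RIP of YTHDF2-ADAR cells, against 17.3, 24.3 and 27.6 CPM in input, and was likewise higher in all 3 lines (1.07, 1.08 and 0.99). On the lower side ZNF260, whose call was lost under mitochondrial scaling alone among the alternatives run, had 14, 13 and 17.3 CPM in YTHDF2 RIP of YTHDF2-ADAR cells, against 23.6, 24.1 and 31.8 CPM in input (log2 fold change -0.84 ± 0.18, edgeR adjusted p = 0.00067). Under mitochondrial scaling 0 members were called higher in YTHDF2 RIP of every line, so ZNF304 and ZNF772 lost calls there too. None of the members was called higher in YTHDF2 RIP of some line and lower in that of another under any of the 4 scalings. By the trimmed mean, 0.00942% of all genes were.

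The YTHDF3 antibody enriched more members. In YTHDF1-ADAR cells 65 were higher and 22 lower in YTHDF3 RIP than in input, where 11.5% of all genes were higher and 20.1% lower. In YTHDF2-ADAR cells 96 were higher and 12 lower, where 15.2% and 16.9% of all genes were, and in YTHDF3-ADAR cells 78 were higher and 13 lower, where 13.5% and 16.1% were. The medians were 0.22, 0.44 and 0.34, against -0.23, 0.09 and 0.01 for all genes, and they kept their sign under the 4 scalings. Relative to all genes, members stood 0.45 to 0.58, 0.35 to 0.37 and 0.33 higher in the 3 lines. Fewer members passed with mitochondrial mRNAs, 11 higher and 2 lower, 92 and 1, and 8 and 1 in the 3 lines, and more with total counts, 110 and 11, 128 and 8, and 112 and 7. The count of members called higher in YTHDF1-ADAR cells was 103 without YTHDF3 RIP replicate 2, and that of members called lower was 14 and 9 without input replicates 2 and 3, and 13, 9 and 11 without YTHDF3 RIP replicates 1, 2 and 3. In the other lines the members called higher numbered 50, 60, 56 and 63 without YTHDF2-ADAR input replicates 1 and 2 and YTHDF3 RIP replicates 1 and 3, and 46, 43, 49, 48 and 47 without YTHDF3-ADAR input replicates 1 to 3 and YTHDF3 RIP replicates 1 and 2.

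ZNF709 (ENSG00000242852, chr19:12461184-12513854) had the highest value, with 16.2, 16.1 and 18.6 CPM in YTHDF3 RIP of YTHDF3-ADAR cells, against 6.33, 7.22 and 6.18 CPM in input. Its log2 fold changes were 1.19, 1.41 and 1.37 in the 3 lines, and 79.4% of its exon bases lie over another gene on the same strand, so its reads cannot be assigned to it alone. ZNF585B (ENSG00000245680, chr19:37181579-37218153) had 25.5, 27.1 and 36.8 CPM in YTHDF3 RIP of YTHDF3-ADAR cells, against 13, 12.2 and 11.9 CPM in input, and log2 fold changes of 1.05, 1.25 and 1.27 in the 3 lines. ZNF136 and ZNF799 followed at 1.22 ± 0.22 and 1.13 ± 0.17 in YTHDF3-ADAR cells. The lower side was led by ZNF428 at -1.38 ± 0.24 and ZNF414 at -1.35 ± 0.21. By the trimmed mean, 59 members were called higher and 9 lower in YTHDF3 RIP of every line, where 8.74% and 12.6% of all genes were. The count of those higher was 100 with total counts and 6 with mitochondrial mRNAs. It was 39 without YTHDF3 RIP replicate 1 of YTHDF2-ADAR cells, and 37 each without input replicate 2 and YTHDF3 RIP replicate 1 of YTHDF3-ADAR cells, with the calls of the other lines kept.

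The tests of a difference between YTHDF1-ADAR cells and the mean of the other lines called 0 members for YTHDF2 RIP, with 17 at an unadjusted p under 0.05 in edgeR and 0 called by DESeq2. For YTHDF3 RIP they called 0 members, with 14 at an unadjusted p under 0.05 in edgeR and 0 called by DESeq2. Of all genes, 0.00314% were called lower for YTHDF2 RIP, and 0.00314% higher and 0.00628% lower for YTHDF3 RIP.

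Direct comparisons of antibodies were made within a line. In YTHDF1-ADAR cells 161 members were higher and 3 lower in YTHDF1 RIP than in YTHDF2 RIP, where 20.3% of all genes were higher and 18.8% lower. Against YTHDF3 RIP, 144 were higher and 5 lower, where 22.4% and 18.7% of all genes were. The member medians, 1.16 and 0.92, change sign to -0.42 and -0.55 under mitochondrial scaling, but members stood 1.30 to 1.35 and 0.85 to 0.86 above the median of all genes under all 4 scalings. Mitochondrial scaling called 0 higher and 32 lower against YTHDF2 RIP, and 2 and 52 against YTHDF3 RIP. Against YTHDF2 RIP, 1 member was lower without YTHDF1 RIP replicate 2. ZNF581 (ENSG00000171425) had 99.7, 93.1 and 81.6 CPM in YTHDF1 RIP, against 25.4, 25.9 and 9.99 CPM in YTHDF2 RIP and 15, 15.9 and 9.4 CPM in YTHDF3 RIP. The YTHDF1 RIP libraries stood above all others, with log2 fold changes of 2.16 ± 0.22 over YTHDF2 RIP and 2.76 ± 0.23 over YTHDF3 RIP. ZNF444 went the other way against YTHDF3 RIP alone, with 27.5, 29.8 and 35.8 CPM in YTHDF1 RIP, against 84.7, 82.4 and 64.8 CPM in YTHDF3 RIP (-1.31 ± 0.20, edgeR adjusted p = 1.7e-06). It was not among the 3 members called lower against YTHDF2 RIP, which were ZNF414, ZNF738 and ZNF428.

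Between the YTHDF2 and YTHDF3 antibodies, members leaned to YTHDF3. In YTHDF2 RIP relative to YTHDF3 RIP, 15 were higher and 50 lower in YTHDF1-ADAR cells (all genes 10.7% and 8.51%), 13 and 60 in YTHDF2-ADAR cells (12.1% and 8.33%), and 12 and 42 in YTHDF3-ADAR cells (9.01% and 5.75%). The medians were -0.22, -0.23 and -0.20 and kept their sign under the 4 scalings, although mitochondrial scaling left 1 higher and 0 lower, 0 and 1, and 0 and 1. ZNF787 (ENSG00000142409, chr19:56087366-56121295) was an exception, with 68.7, 65.8 and 51.6 CPM in YTHDF2 RIP of YTHDF2-ADAR cells, against 25.5, 31.1 and 24.3 CPM in YTHDF3 RIP. It was higher in YTHDF2 RIP in each line, by 1.43, 1.20 and 1.17 on the log2 scale (SE 0.16 each), and ZNF653 was too, by 1.23, 1.10 and 1.08. ZNF100 (ENSG00000197020, chr19:21722771-21767579) had 11.5, 9.84 and 11.1 CPM in YTHDF2 RIP of YTHDF2-ADAR cells, against 33.0, 27.6 and 31.0 CPM in YTHDF3 RIP. Its log2 values of -1.56, -1.49 and -1.27 in the 3 lines were among the lowest, and no YTHDF2 RIP library reached a YTHDF3 RIP library in YTHDF2-ADAR cells. In YTHDF1-ADAR cells 9 and 8 members were higher without YTHDF2 RIP replicate 1 and YTHDF3 RIP replicate 3. In YTHDF2-ADAR cells 8 were higher without YTHDF2 RIP replicate 2, and 38 were lower without YTHDF2 RIP replicate 1. In YTHDF3-ADAR cells 5 and 4 were higher without YTHDF2 RIP replicate 2 and YTHDF3 RIP replicate 2, 23 were lower without YTHDF2 RIP replicate 3, and 21 and 24 without YTHDF3 RIP replicates 2 and 3.

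Members were grouped by position, with a new group begun where neighbouring starts lay over 1 Mb apart, and the 9 groups with at least 5 members were described. In YTHDF1 RIP of YTHDF1-ADAR cells the member median was above 0 in each of them with the trimmed mean, the scaling by which all values by position are given. It was highest at chr19:11483427-12640098 (13 members, ZNF653 to ZNF791), where 12 were higher than in input, 0 were lower, and the median log2 fold change was 1.90. At chr19:51571283-53496255 (26 members, ZNF175 to ZNF813) 25 were higher and 0 lower, with a median of 1.45. The largest group, chr19:55476617-58481230 (52 members, ZNF628 to ZNF446), had 42 higher and 3 lower, with a median of 1.24. The lowest median was 0.40, at chr19:19668796-21767579 (13 members, ZNF101 to ZNF100), with 7 higher and 2 lower. Those counts stand against 20.6% higher and 28.8% lower over all genes.

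**Figure D3:**
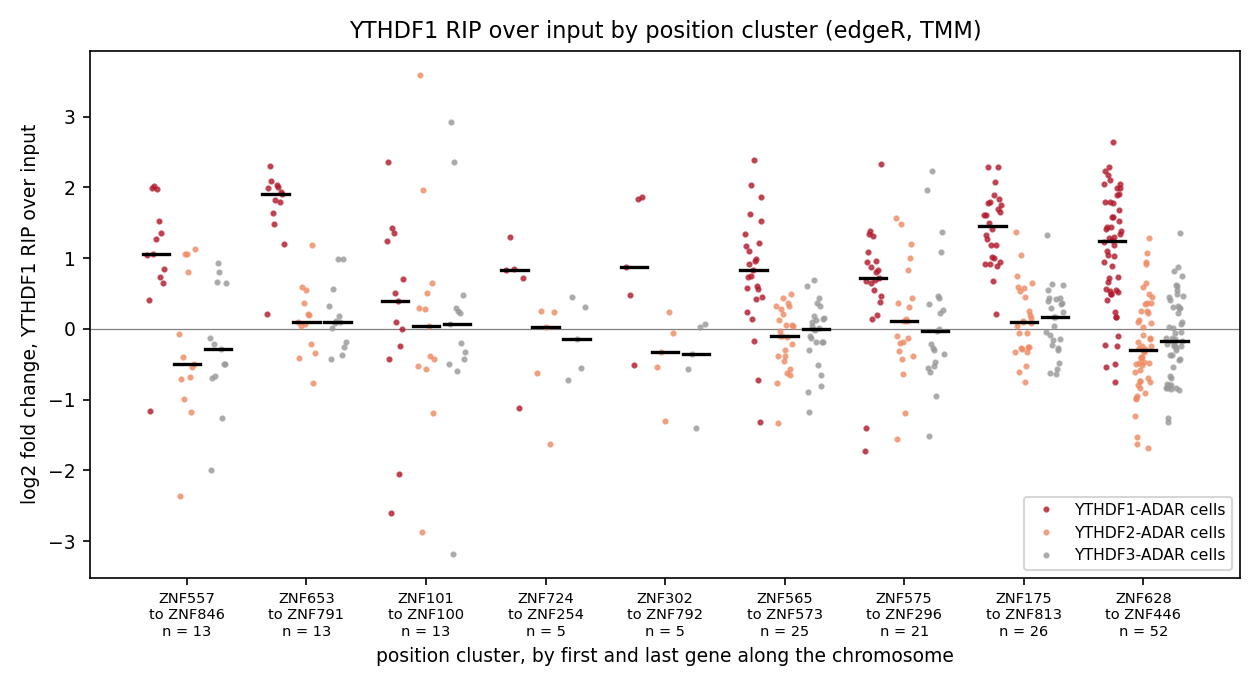
Log2 fold change of YTHDF1 RIP over input for members of the 9 position groups with at least 5 members, in the 3 lines, with 1 point per gene and bars at the medians. In YTHDF1-ADAR cells every group median is above 0, from 0.40 to 1.90; under mitochondrial scaling the median of all members is 0.11 there.

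With the other antibodies the position groups are described by their counts and medians, and the difference between groups was not tested. In YTHDF2 RIP of YTHDF2-ADAR cells, 23 of the 52 members at chr19:55476617-58481230 were higher than in input and 0 were lower (median 0.38), while at chr19:19668796-21767579, 1 was higher and 5 were lower (median -0.42), where 10.2% and 10.1% of all genes were. In YTHDF3 RIP the group at chr19:11483427-12640098 had the medians 0.55, 0.83 and 0.74 in the 3 lines, and that at chr19:51571283-53496255 had 0.41, 0.61 and 0.44. In YTHDF2 RIP relative to YTHDF3 RIP the medians were below 0 in all 9 groups but chr19:55476617-58481230, which had 0.16, 0.08 and 0.12.

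The members' median longest exon was 3589 bases, against 3215 bases for the 229 ZNF genes of other chromosomes, 1384.5 bases for the 804 other protein-coding genes of chromosome 19 with at least 1 CPM and 2177 bases for 12445 other protein-coding genes elsewhere. Across the 187 members, the longest exon and the YTHDF3 RIP log2 fold change had a Spearman rho of 0.26, 0.33 and 0.23 in the 3 lines, while rho was 0.016 for YTHDF1 RIP in YTHDF1-ADAR cells. For YTHDF3 RIP, rho was 0.43, 0.51 and 0.49 in the ZNF genes of other chromosomes. It was 0.41 in each line in the other protein-coding genes of chromosome 19, so the relation was not particular to members. For YTHDF1 RIP in YTHDF1-ADAR cells, rho was 0.054 and 0.36 in those sets. These values describe genes within the same libraries, which are not independent replicates and share length and depth. Split by the longest exon into 3 parts, the short part (884 to 2750 bases, 62 members) had 15, 23 and 22 members higher in YTHDF3 RIP and 13, 11 and 10 lower in the lines with the YTHDF1, YTHDF2 and YTHDF3 fusion. The middle part (2782 to 4227 bases, 62 members) had 24, 36 and 29 higher and 3, 1 and 1 lower. The long part (4295 to 13431 bases, 63 members) had 26, 37 and 27 higher and 6, 0 and 2 lower. The middle and long parts were thus close to each other, with median log2 fold changes of 0.32, 0.53 and 0.41 in the middle part and 0.22, 0.50 and 0.32 in the long part, against 0.13, 0.21 and 0.22 in the short part. Of all genes, 11.5%, 15.2% and 13.5% were higher and 20.1%, 16.9% and 16.1% lower.

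The YTHDF1 RIP enrichment in YTHDF1-ADAR cells was not confined to chromosome 19. Of 229 ZNF genes of other chromosomes, 166 were higher and 21 lower than in input, with a median of 0.97. Of the 804 other protein-coding genes of chromosome 19, 217 were higher and 353 lower, with a median of -0.36. The difference between these sets was not tested. Of 25 genes of the KRAB silencing machinery, 9 were higher and 11 lower in that comparison, with a median of -0.29. Over all genes tested 20.6% were higher and 28.8% lower, with a median of -0.28, so the machinery's median lay at the background. SETDB1, the histone methyltransferase, had a log2 fold change of 0.88 ± 0.13 and its partner ATF7IP 0.91 ± 0.14. TRIM28, the scaffold that binds KRAB, had -0.82 ± 0.21, and the heterochromatin proteins CBX1, CBX3 and CBX5 had -1.32 ± 0.28, -1.95 ± 0.22 and -1.62 ± 0.18. Under mitochondrial scaling 0 of the 25 were higher there and 14 were lower, while DESeq2 size factors and total counts each gave 11 higher and 9 lower. In YTHDF3 RIP the machinery had 13 higher and 5 lower, 13 and 6, and 12 and 5 in the 3 lines, where 11.5% and 20.1%, 15.2% and 16.9%, and 13.5% and 16.1% of all genes were. Mitochondrial scaling gave 6 and 0, 14 and 1, and 2 and 0. In the YTHDF1 RIP libraries that stood apart 1 was higher and 16 lower in YTHDF2-ADAR cells, and 1 and 15 in YTHDF3-ADAR cells, where 41.8% and 33.4%, and 40.8% and 32.4% of all genes were. Total counts gave 9 and 8, and 6 and 11, and mitochondrial scaling 0 and 16, and 0 and 24.

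Member levels also differed between the inputs of the 3 lines. In YTHDF2-ADAR relative to YTHDF3-ADAR input, 47 members were higher and 8 lower, where 1.27% of all genes were higher and 2.15% lower. The median log2 difference was 0.32 for members, against 0.00 for all genes. The members' median turns to -0.11 under mitochondrial scaling, but members stood 0.30 to 0.32 above all genes under all 4 scalings. Mitochondrial scaling called 0 higher and 3 lower. Of 229 ZNF genes elsewhere in the genome 16 were higher and 6 lower, and of 804 other protein-coding genes of chromosome 19, 14 were higher and 18 lower. Leaving out 1 input brought the members called higher to 31, 27 or 26 (YTHDF2-ADAR replicates 1, 2 and 3) or to 24, 24 or 28 (YTHDF3-ADAR replicates 1, 2 and 3), and those called lower to 5 without YTHDF2-ADAR input replicate 1 or 2 or YTHDF3-ADAR input replicate 3. In bulk RNA, a change in part of the cells and a change in RNA per cell cannot be told apart.

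In YTHDF1-ADAR relative to YTHDF2-ADAR input, 9 members were higher and 58 lower, where 13.3% of all genes were higher and 4.30% lower. The median was -0.24, against 0.08 for all genes, and it turns to 0.68 under mitochondrial scaling, while members stood 0.31 to 0.35 below all genes under all 4 scalings. Total counts gave 14 higher and 42 lower, and mitochondrial mRNAs 33 and 1. Input replicate 1 of YTHDF1-ADAR cells had the highest summed olfactory receptor level of the inputs in that line, 13.9 CPM, and without it 33 members were lower and 5 higher, while without input replicate 3 of that line 5 were higher. In YTHDF1-ADAR relative to YTHDF3-ADAR input, 14 were higher and 7 lower, where 11.3% and 5.10% of all genes were, and mitochondrial scaling gave 5 and 0. Those counts rest on single libraries: 4, 3 and 6 members were higher without YTHDF1-ADAR input replicates 1, 2 and 3, 3, 3 and 4 without those of YTHDF3-ADAR, and 1, 16 and 13 were lower without YTHDF1-ADAR input replicates 1, 2 and 3.

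Input differences are given by position as counts, and the difference between position groups was not tested. In YTHDF2-ADAR relative to YTHDF3-ADAR input, 24 of 52 members at chr19:55476617-58481230 were higher and 0 lower (median 0.43), and 9 of 21 at chr19:43525497-45076587 were higher and 0 lower (median 0.52). At chr19:23221599-24129968, 0 of 5 were higher and 3 lower (median -0.82), and at chr19:19668796-21767579, 1 of 13 was higher and 4 lower (median -0.17). Of all genes, 1.27% were higher and 2.15% lower. In YTHDF1-ADAR relative to YTHDF2-ADAR input, which uses the same YTHDF2-ADAR libraries, those 4 groups had 0 higher and 24 lower, 0 and 14, 2 and 0, and 6 and 0, where 13.3% and 4.30% of all genes were.

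ZNF91 (ENSG00000167232, chr19:23304991-23395471, minus strand), a KRAB protein that silences SVA retroelements, differed most. It had 1.95, 1.37 and 2.78 CPM in YTHDF2-ADAR input, against 13.9, 13.6 and 17.5 CPM in YTHDF3-ADAR input, with YTHDF1-ADAR input between them at 5.20, 4.79 and 6.02 CPM. No library of a line overlapped another line's, and the log2 difference was -2.88 ± 0.22 for YTHDF2-ADAR over YTHDF3-ADAR (edgeR adjusted p = 1.7e-11) and 1.40 ± 0.22 for YTHDF1-ADAR over YTHDF2-ADAR. ZNF493 had 2.44, 2.62 and 3.17 CPM in YTHDF2-ADAR input, against 6.75, 7.16 and 7.38 CPM in YTHDF3-ADAR input (-1.37 ± 0.21). Lower in YTHDF2-ADAR cells, they stood against ZNF426 (ENSG00000130818, chr19:9523223-9538645), with 27.9, 30.2 and 30.8 CPM in YTHDF2-ADAR input, against 10.6, 9.97 and 9.73 CPM in YTHDF3-ADAR input (1.55 ± 0.13, edgeR adjusted p = 1.6e-10). ZNF772 had 17.3, 24.3 and 27.6 CPM in YTHDF2-ADAR input, against 8.86, 7.77 and 9.05 CPM in YTHDF3-ADAR input (1.43 ± 0.18). ZNF551 and ZNF134 followed at 1.20 ± 0.14 and 1.16 ± 0.16, and for each of these 4 genes the groups did not overlap.

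**Figure D4:**
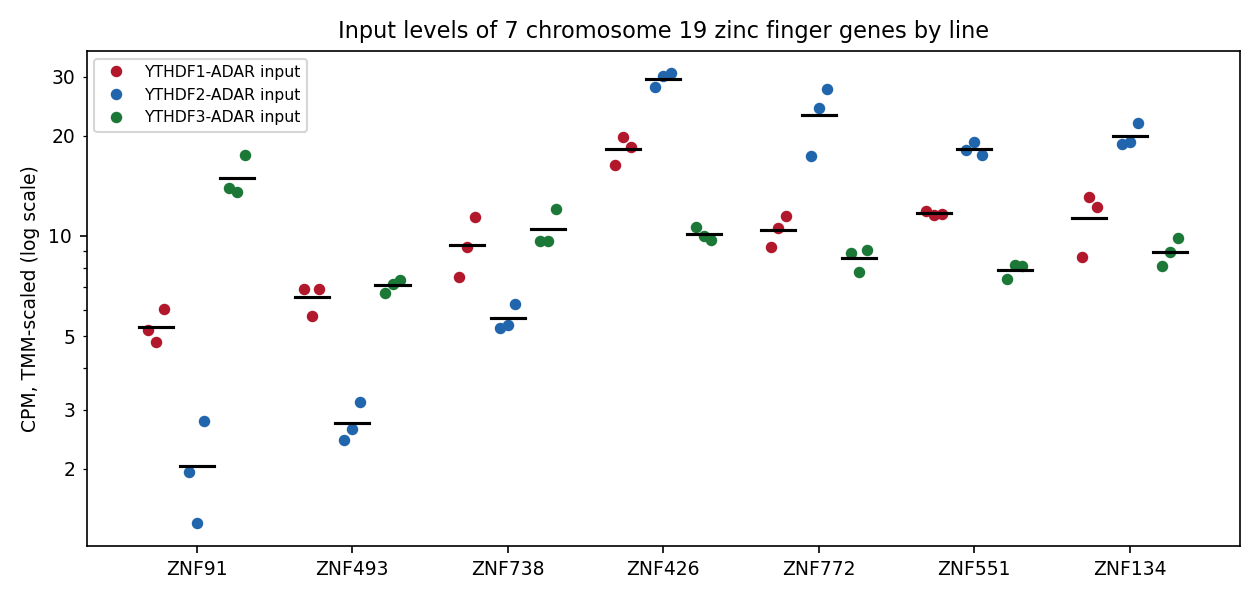
Input level (CPM, log axis) of 7 zinc finger genes in the 3 lines, with 1 point per library and bars at the means of 3 libraries. ZNF91 lies between 1.37 and 2.78 CPM in YTHDF2-ADAR cells and between 13.6 and 17.5 CPM in YTHDF3-ADAR cells, while ZNF426 lies higher in YTHDF2-ADAR cells.

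The promoters of 3 of these genes are shown because ZNF772 and ZNF551 lie in the position group that was higher in YTHDF2-ADAR input and ZNF91 in the group that was lower. Each is the RefSeq GRCh38.p14 window of 300 bases around the gene start on the gene's strand, at chr19:57477517-57477816 (minus) for ZNF772, chr19:57681727-57682026 (plus) for ZNF551 and chr19:23395422-23395721 (minus) for ZNF91. Capitals mark each CG, the dinucleotide that DNA methylation acts on and that reads the same on both strands.
ZNF772: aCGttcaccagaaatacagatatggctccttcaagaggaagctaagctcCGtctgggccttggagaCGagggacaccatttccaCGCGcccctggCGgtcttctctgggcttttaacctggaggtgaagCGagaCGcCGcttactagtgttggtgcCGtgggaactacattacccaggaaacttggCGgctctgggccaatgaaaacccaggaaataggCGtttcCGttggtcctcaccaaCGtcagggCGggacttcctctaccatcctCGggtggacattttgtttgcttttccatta
ZNF551: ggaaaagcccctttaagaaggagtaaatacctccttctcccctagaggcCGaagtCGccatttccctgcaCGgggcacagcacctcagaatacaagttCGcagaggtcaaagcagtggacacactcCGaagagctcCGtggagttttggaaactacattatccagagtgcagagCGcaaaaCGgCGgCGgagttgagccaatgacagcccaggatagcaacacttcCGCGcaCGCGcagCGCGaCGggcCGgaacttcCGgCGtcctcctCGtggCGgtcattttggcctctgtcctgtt
ZNF91: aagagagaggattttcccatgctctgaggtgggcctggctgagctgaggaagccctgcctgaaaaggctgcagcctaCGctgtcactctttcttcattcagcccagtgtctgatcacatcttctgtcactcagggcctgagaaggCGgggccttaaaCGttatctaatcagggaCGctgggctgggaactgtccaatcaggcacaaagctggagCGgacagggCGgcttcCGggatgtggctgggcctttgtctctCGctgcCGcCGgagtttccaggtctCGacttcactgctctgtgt
The windows hold 16, 22 and 11 CG. RefSeq windows matched 169 members by symbol, with a median of 21 CG and a range of 2 to 40, against a median of 14 over all 35116 promoters. At least 10 CG stood in 96.4% of member windows and in 56.4% of all windows, and at least 1 CG in 100% and 96.0%. By the call in YTHDF2-ADAR relative to YTHDF3-ADAR input, the median was 20 CG for the 42 matched members that were higher, 10 for the 7 that were lower and 22 for the 120 not called. These are counts of letters, and no test was made on them.

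The authors' editing tables give, for each line, the number of edited sites per gene and an editing score per fraction, with replicates pooled, so no spread between libraries and no depth per site is known. An editing level in percent was taken here as the mean score per site. The table of YTHDF1-ADAR cells listed 98 of 187 members (52.4%), with 1419 sites in all and a median of 9 sites per listed member. That share lay near or below those of other protein-coding genes with a symbol and at least 1 CPM, 53.9% of 742 on chromosome 19 and 58.6% of 12044 elsewhere. The table of YTHDF2-ADAR cells listed 28 members (14.97%) with 137 sites, and that of YTHDF3-ADAR cells 23 (12.3%) with 101 sites, against 14.4% and 18.7% of the other genes of chromosome 19 and 17.7% and 21.9% of those elsewhere. Of the members, 15 were in all 3 tables, 67 were in the YTHDF1-ADAR table only, and 85 were in none. Of 229 ZNF genes of other chromosomes, which had higher input levels (median 18.1 CPM, against 8.0 CPM), 171 (74.7%) were in the YTHDF1-ADAR table with a median of 14 sites.

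The 5 members with most sites held 29.2% of all 1419 sites, and 14 members held 50% of them. ZNF865 (ENSG00000261221) had 125 sites in YTHDF1-ADAR cells, with a level of 4.88% in YTHDF1 RIP, against 3.70% in input. Its neighbours by site number were ZNF324B with 90 sites, at 3.40% in YTHDF1 RIP against 3.54% in input, and ZNF324 with 78 sites, at 3.47% against 2.77%. ZNF460 had 69 sites, at 1.80% in YTHDF1 RIP against 1.18% in input, and ZNF526 had 52, at 5.07% against 3.06%. Each level is a mean over all sites of a gene.

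**Figure D5:**
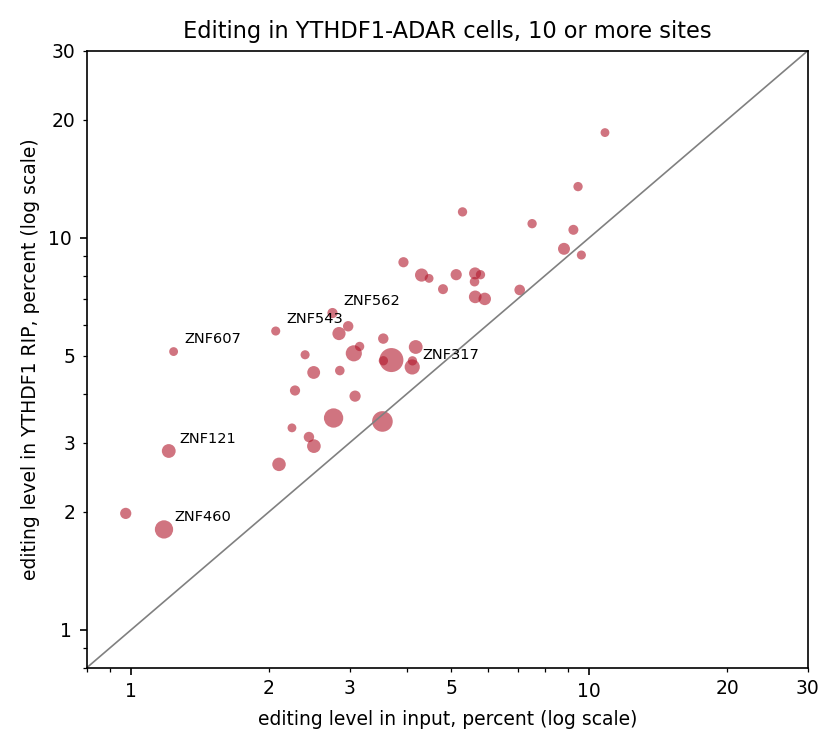
Editing level (percent, log axes) of 45 members with at least 10 sites in YTHDF1-ADAR cells, in YTHDF1 RIP (vertical axis) against input (horizontal axis), with point size by number of sites and the line of equality. The points of 43 members lie above the line and those of ZNF615 and ZNF324B below it.

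Among the 45 members with at least 10 sites and a level in each fraction of YTHDF1-ADAR cells, the median level was 5.53% in YTHDF1 RIP, 5.20% in YTHDF2 RIP and 4.73% in YTHDF3 RIP, against 3.55% in input. The authors' natural log odds ratios of RIP over input had medians of 0.407, 0.355 and 0.320, and 43 of 45 were above 0 in YTHDF1 RIP, 43 in YTHDF2 RIP and 42 in YTHDF3 RIP. Other protein-coding genes off chromosome 19 with at least 10 sites were above 0 in 96.0%, 94.3% and 89.4% of cases, so the members' shares of 95.6%, 95.6% and 93.3% lie near the background. The 3 RIP fractions share the same pooled input. The exceptions in YTHDF1 RIP were ZNF324B and ZNF615. Over members with any number of sites, the authors' deposited table called 5 higher in YTHDF1 RIP at an adjusted p under 0.05, of 93 with levels (5.38%), where 7.93% of all genes of that table were: ZNF121, ZNF587 (adjusted p = 0.015), ZNF480 (5 sites, 0.018), ZNF358 (8 sites, 0.044) and ZNF417 (0.048). ZNF358 and ZNF417 are named for that call, after their values were seen. ZNF121 had 36 sites, at 2.86% in YTHDF1 RIP against 1.21% in input. The highest ratio at 10 or more sites was that of ZNF607, 1.46, with 5.13% in YTHDF1 RIP against 1.24% in input at 10 sites. ZNF543 followed at 1.07, with 5.78% against 2.07%, and ZNF562 at 0.887, with 6.43% against 2.75%. In the authors' deposited table none of these 3 passed, with adjusted p of 0.099, 0.090 and 0.096.

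In the other lines few members had 10 sites. In YTHDF2-ADAR cells the median natural log odds ratio was -0.353 for YTHDF1 RIP over 3 members, and 0.087 and 0.027 for YTHDF2 RIP and YTHDF3 RIP over 4 members each. In YTHDF3-ADAR cells it was -0.606, 0.459 and 0.339 for YTHDF1 RIP, YTHDF2 RIP and YTHDF3 RIP over 5 members each. ZNF714 had the most sites in YTHDF3-ADAR cells, 20, at 5.31% in YTHDF3 RIP against 2.75% in input, while its 36 sites in YTHDF1-ADAR cells stood at 5.27% in YTHDF1 RIP against 4.18% in input. In the authors' deposited table ZNF264 passed in YTHDF3 RIP of YTHDF2-ADAR cells, where 0.833% of all listed genes did, with 5.52% against 3.28% in input at 10 sites (adjusted p = 0.005). ZNF579, singled out after its values were seen, stood at 84.0% in YTHDF2-ADAR and 82.2% in YTHDF3-ADAR input over 2 sites each, against 7.05% over 18 sites in YTHDF1-ADAR input.

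Of the 152 members called higher in YTHDF1 RIP of YTHDF1-ADAR cells, 90 (59.2%) were in that line's editing table, as were 8 of the other 35 (22.9%), so 91.8% of the listed members were called higher. Of all 187 members, 152 were called higher and 98 were listed for editing. The same split was not made over all genes, so whether it is particular to members is not known. Both readouts come from the same libraries and share depth, and no test was made. ZNF416, highest in YTHDF1 RIP, had 13 sites in YTHDF1-ADAR cells, at 16.5% in YTHDF1 RIP, with no level listed for input. ZNF304 had 21 sites, at 8.05% in YTHDF1 RIP against 5.13% in input, and ZNF14 had 5 sites, at 5.47% against 5.96%.

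The authors' deposited table of fold changes, whose contrast its header does not state, called 59 members higher and 14 lower under the name YTHDF1, where 20.8% and 16.6% of its 60582 genes were. It called 27 and 10 under YTHDF2, where 6.46% and 6.43% of all were, and 65 and 12 under YTHDF3, where 8.32% and 9.79% were.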

How the data were processed

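RNA-seq of 36 libraries (12 groups of 3) was used. Reads were aligned with STAR 2.7.7 to GRCh38, per the submitters' processing notes, and the authors deposited raw counts per gene from featureCounts 2.0.1, which, per the file headers, kept multi-mapping and overlapping reads and used no strand option. The authors deposited a DESeq2 table of mean signal (size-factor scaled counts), log2 fold changes and adjusted p-values, and editing tables with a count of sites, a score per fraction, natural log (ln) odds ratios and adjusted p-values, replicates pooled. The ln odds ratio matched the score divided by sites within 1e-06 for most genes. 

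From the counts, edgeR 4.0.16 (R 4.3.3; trimmed mean scaling, filterByExpr, glmQLFit robust, glmQLFTest) was fitted as 1 model of 12 groups over 31849 of 60675 genes, with 20 comparisons and Benjamini-Hochberg adjustment over all genes tested in each. It was tested on simulated data. The CPM of member genes in single libraries use the scaled library sizes. Mean input levels, levels per kb, and the levels of olfactory receptor genes and cell markers use total counts. Alternatives were DESeq2 1.42.0 (also its size factors alone), total counts, mitochondrial mRNA scaling, no filter, a replicate block and leaving out each library. Every count column was used. The members, gene lists and tests were chosen with earlier results of these data known. Genes were named by a rule: among members with at least 3 CPM, those highest and lowest in each comparison, those with the smallest p of the difference, those with most sites or the highest ln odds ratios at 10 or more sites, and a list of members with described roles. Protein features were not analysed here.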

Additional observations from a re-analysis of the deposited data

Results flagged for a closer look

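The YTHDF1 RIP enrichment of zinc finger genes differed between lines by a test of the difference itself. In YTHDF1-ADAR cells 141 members were higher and 12 lower than in the mean of the other lines (edgeR, Benjamini-Hochberg adjusted). Of all genes, 26.9% were higher and 42.4% lower in that test. Mitochondrial scaling called 97 members higher and 4 lower. Among members named by rule, the difference was 2.76 for ZNF304, 2.42 for ZNF490, 2.41 for ZNF627, 2.38 for ZNF555, 2.05 for ZNF543 and -1.76 for ZNF738 on the log2 scale. Of ZNF490's exon bases 51.1% lie over another gene. In those lines' YTHDF1 RIP libraries, olfactory receptor genes summed to 32.3 to 54.3 CPM, and the part of this in the difference was not tested.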

How the results depend on the processing

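Of 266 values under another setting, 204 were kept and 62 moved. Most were member counts by comparison under another scaling, filter, block or tool, or without a library pair. These were kept if within 1.5 times the count given in the report. The rest were median ln odds ratios at other site minimums, kept if within the SD across members, and the number of members at 5 CPM. Calls of single genes were checked only in the comparison for which the gene was named as highest, lowest or with the smallest p. A change of direction was therefore unlikely from the start. Under the same alternatives these calls were kept in 510 cases and lost in 78, and 0 changed direction. The other gene values given above were not checked in this way. Counts below are members called higher, then lower, and the causes of the shifts were not tested. With DESeq2 size factors, 23 were lower in YTHDF2 RIP than in input of YTHDF1-ADAR cells and 7 were higher in YTHDF2 RIP than in YTHDF3 RIP of YTHDF3-ADAR cells. With total counts, RIP against input gave 53 and 14 (YTHDF2 RIP) and 110 and 11 (YTHDF3 RIP) in YTHDF1-ADAR cells, 99 and 14 (YTHDF1 RIP) and 70 and 3 (YTHDF2 RIP) in YTHDF2-ADAR cells, and 80 and 19 (YTHDF1 RIP), 72 and 3 (YTHDF2 RIP) and 7 lower (YTHDF3 RIP) in YTHDF3-ADAR cells, and 14 were higher in YTHDF1-ADAR than in YTHDF2-ADAR input. With mitochondrial mRNA scaling, RIP against input gave 17 higher, 4 and 0, and 11 and 2 in YTHDF1-ADAR cells, 1 higher, 1 and 0, and 1 lower in YTHDF2-ADAR cells, and 1 and 164, 0 and 0, and 8 and 1 in YTHDF3-ADAR cells for the YTHDF1, YTHDF2 and YTHDF3 antibodies. It gave 0 and 32 for YTHDF1 RIP against YTHDF2 RIP, 2 and 52 for YTHDF1 RIP against YTHDF3 RIP, and 1 and 0, 0 and 1, and 0 and 1 for YTHDF2 RIP against YTHDF3 RIP in the 3 lines. Inputs gave 33 and 1 for YTHDF1-ADAR against YTHDF2-ADAR, 5 and 0 for YTHDF1-ADAR against YTHDF3-ADAR, and 0 and 3 for YTHDF2-ADAR against YTHDF3-ADAR cells, and 4 were lower in the difference of YTHDF1 RIP enrichment. With no filter on low counts, 17 were lower in YTHDF2 RIP and 14 in YTHDF3 RIP of YTHDF1-ADAR cells, 22 higher in YTHDF1 RIP and 25 in YTHDF2 RIP of YTHDF2-ADAR cells, 23 higher in YTHDF1 RIP and 8 lower in YTHDF2 RIP of YTHDF3-ADAR cells, 5 lower in YTHDF1 RIP against YTHDF2 RIP, and 7 higher in YTHDF1-ADAR against YTHDF3-ADAR input.

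Same-numbered libraries did not all deviate together (54 pairs, correlations from -0.656 to 0.568 with a median of 0.0469, 23 over 0.1), and 16 of 36 libraries correlated best with their own number, so the numbers were not taken as pairs. With the replicate number as a block within each line, 151 members were higher in YTHDF1 RIP than in input of YTHDF1-ADAR cells. Inputs of different lines were compared in that fit at the level of replicate 1, not at block-adjusted group means. It called 18 members higher in YTHDF2-ADAR than in YTHDF3-ADAR input and 3 lower in YTHDF1-ADAR than in YTHDF3-ADAR input. These input counts therefore cannot show what blocking does, although both are among the values that moved. Without both input replicate 1 and YTHDF2 RIP replicate 3 of YTHDF1-ADAR cells, which had the highest olfactory receptor sums of their groups (13.9 and 18.5 CPM) and were chosen after seeing the data, 144 and 11 were called in YTHDF1 RIP against input, 149 and 9 in the difference, 38 lower in YTHDF1-ADAR against YTHDF2-ADAR input, and 8 and 4 in YTHDF1-ADAR against YTHDF3-ADAR input.

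Leaving out 1 library at a time, RIP against input gave 143 to 154 and 8 to 11 (YTHDF1 RIP), 21 to 44 and 15 to 38 (YTHDF2 RIP), and 53 to 103 and 9 to 19 (YTHDF3 RIP) in YTHDF1-ADAR cells, 18 to 36 and 52 to 90, 20 to 41 and 4 to 10, and 50 to 70 and 9 to 15 in YTHDF2-ADAR cells, and 14 to 35 and 44 to 81, 9 to 39 and 4 to 12, and 43 to 53 and 11 to 12 in YTHDF3-ADAR cells. It gave 154 to 158 and 1 to 3 for YTHDF1 RIP against YTHDF2 RIP, 121 to 133 and 5 for YTHDF1 RIP against YTHDF3 RIP, and 8 to 17 and 34 to 57, 8 to 15 and 38 to 66, and 4 to 8 and 21 to 43 for YTHDF2 RIP against YTHDF3 RIP in the 3 lines. Inputs gave 5 to 7 and 33 to 78, 3 to 6 and 1 to 16, and 24 to 31 and 5 to 6, and the difference of YTHDF1 RIP enrichment gave 141 to 156 and 7 to 12. With at least 5 sites in place of 10 the median ln odds ratio of the RIP of the same name was 0.403, 0.118 and 0.329 for YTHDF1, YTHDF2 and YTHDF3 over 67, 8 and 6 members. With 20 sites it was 0.272 for YTHDF1 over 20 members, while 1 member was left for YTHDF3 (ZNF714, 0.687). Members with at least 5 CPM in input number 134.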
